A study of Saccharomyces cerevisiae with 8 samples.

Results

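The 10 histone genes of budding yeast (Saccharomyces cerevisiae) were followed through RNA-seq and ribosome profiling of 4 genotypes. They were chosen by name from the 6668 genes listed in every library. They are both copies each of the genes for H2A (HTA1, HTA2), H2B (HTB1, HTB2), H3 (HHT1, HHT2) and H4 (HHF1, HHF2), the variant gene HTZ1 (H2A.Z) and the linker gene HHO1 (H1). All strains had the W303 background and grew on glycerol and ethanol. Besides wild type there were strains lacking MSP1, PEX19 or both genes, the last called the double deletion here. Msp1, an ATPase on the mitochondrial surface, pulls out misplaced tail-anchored proteins, and Pex19 escorts membrane proteins to peroxisomes. The title names Zellweger spectrum disorder, a failure of peroxisome assembly, as the subject. A genotype was represented by 1 library for RNA-seq and 1 for ribosome-protected fragments (RPF), so no value below has a replicate check and no test could be run.

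Nucleosomes wrap DNA around an octamer of H2A, H2B, H3 and H4. In yeast the core histone genes lie in divergent pairs, each pair transcribed from a shared intergenic region, and their mRNA peaks in S phase when DNA is copied. Transcription is activated through Spt10 and, at most but not all of these pairs, held down outside S phase by the HIR complex. H2A.Z replaces H2A in nucleosomes beside promoters, where the SWR1 complex inserts it, and its gene is not part of a divergent pair. Hho1 is the yeast linker histone, related to H1.

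The copies are so alike that part of their reads cannot be assigned by sequence. HHF1 and HHF2 shared 97.4% of their coding bases (8 differences), HTA1 and HTA2 93.7%, HHT1 and HHT2 93.2%, and HTB1 and HTB2 87.9%. The translated H3 copies were identical, as were the H4 copies, while the H2A copies differed at 2 residues and the H2B copies at 4. Of all 28-nt windows of coding sequence, a length near that of a footprint, 45.6% in each H4 gene occurred elsewhere in the genome. That share was 26.6% in each H3 gene, 14.8% in each H2A gene and 2.71% in each H2B gene. HTZ1 and HHO1 had 0% at 28 nt and at 20 nt, so their reads are free of this limit. The sources used here do not say how shared reads were counted, so values of single copies are uncertain and sums over the copies of a histone are given beside them. The longest runs of coding sequence identical in both copies are shown, because reads inside them fit either gene. They were 65 nt for H2A, 35 nt for H2B, 74 nt for H3 and 80 nt for H4. The longest run that HTZ1 shared with HTA1 and HTA2 was 15 nt, shorter than a footprint. All letters are coding strand from the R64 genome, and no base is capitalised because every base is shared.
HTA1 and HTA2: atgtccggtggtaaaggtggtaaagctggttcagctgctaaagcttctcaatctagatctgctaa
HTB1 and HTB2: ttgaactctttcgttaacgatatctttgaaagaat
HHT1 and HHT2: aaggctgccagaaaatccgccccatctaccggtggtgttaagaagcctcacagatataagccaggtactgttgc
HHF1 and HHF2: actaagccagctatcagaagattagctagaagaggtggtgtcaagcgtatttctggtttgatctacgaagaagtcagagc
HTZ1, HTA1 and HTA2: aggtggtgttttgcc

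The intergenic regions of all 4 divergent pairs held the Spt10 consensus, and the upstream regions of HTZ1 and HHO1 did not. The motif searched was TTCC, 6 bases of any kind, TTC, 1 base of any kind and C, on both strands, with no other motif searched. HTA1 and HTB1 (chromosome IV, 817 bases apart) had 2 matches. HTA2 and HTB2 (chromosome II, 699 bases), HHT1 and HHF1 (chromosome II, 646 bases) and HHT2 and HHF2 (chromosome XIV, 676 bases) had 1 each. Of 6005 genes with 600 bases before the coding start, 3.46% had a match there, as did all 8 core histone genes, while HTZ1 and HHO1 had 0. The 8 core genes share 4 intergenic regions, so the same elements are met from both sides. The motif was picked as that of an activator of the core genes, so these shares are no test of enrichment. A match describes the letters and not a bound site. The elements are shown because they are what the core genes share and the other histone genes lack in this window; capitals mark the fixed bases of the motif, read on the strand named (build R64).
HTA1-HTB1, chrIV:915114-915128, plus strand: TTCCaaaattTTCgC
HTA1-HTB1, chrIV:915137-915151, minus strand: TTCCaatagcTTCgC
HTA2-HTB2, chrII:236108-236122, minus strand: TTCCcattatTTCtC
HHT1-HHF1, chrII:255944-255958, minus strand: TTCCgagcgcTTCtC
HHT2-HHF2, chrXIV:576346-576360, minus strand: TTCCgagcacTTCgC

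RNA-seq libraries held 4694951 to 5367091 reads and RPF libraries 1101458 to 2300792, the lowest in the msp1 deletion. A gene entered the comparisons with a mean of at least 50 reads in each assay, which 3737 genes and all 10 histone genes passed. The lowest listed value is 1 and never 0. MSP1 and PEX19 were listed at 1 in every library of a strain labelled as lacking them, and at 104 to 731 reads in every other library. Ratios are on the log2 scale of reads scaled within an assay; their 95% intervals, in parentheses, cover counting error only.

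HTZ1 stood apart from the other histone genes and is described first for that reason, a choice made after its values were seen. The gene (YOL012C; chromosome XV, 303579 to 303983, minus strand, 1 coding exon) had 1474 RNA-seq reads in wild type, 2262 in the msp1 deletion, 1613 in the pex19 deletion and 3657 in the double deletion. As scaled CPM, counts relative to a scaled library, these were 271, 429, 350.0 and 732. The 95% counting intervals of the 4 RNA levels did not overlap, with wild type lowest and the double deletion highest. In RPF it had 275, 134, 278 and 237 reads in the same order, or 130.1, 121, 122 and 140 scaled CPM. All 4 RPF intervals overlapped, so RNA differed between the libraries where footprints did not differ beyond counting error.

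The HTZ1 RNA ratio to wild type was 1.43 (1.35 to 1.52) in the double deletion, a 2.70-fold higher level. It was 0.66 (0.57 to 0.76) in the msp1 deletion and 0.37 (0.27 to 0.47) in the pex19 deletion. These are high values among the 3737 genes in the double and msp1 deletions, with rank 3 and rank 19 from the top, but not in the pex19 deletion, where HTZ1 had rank 453. The RPF ratios were 0.10 (−0.15 to 0.36) in the double, −0.11 (−0.42 to 0.19) in the msp1 and −0.10 (−0.34 to 0.15) in the pex19 deletion. Each of these intervals holds 0. HTZ1 was the only one of the 10 histone genes at least 2-fold higher in RNA-seq in the double deletion, where 0.214% of all genes were that high. In the other comparisons with wild type 0 of the 10 were at least 2-fold higher or lower in either assay. Of all genes, 0.214% were higher and 0.0535% lower in msp1 RNA-seq, 1.82% and 1.26% in msp1 RPF, 0.294% and 1.2% in pex19 RNA-seq, 0.241% and 0.268% in pex19 RPF. In the double deletion 0.241% were lower in RNA-seq, and 0.0803% were higher and 0.241% lower in RPF. With shares this small, counts of 0 among 10 genes say little about histones. One wild-type library per assay served all 3 comparisons, so the shared sign of the HTZ1 RNA ratios is not independent.

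**Figure D1:**
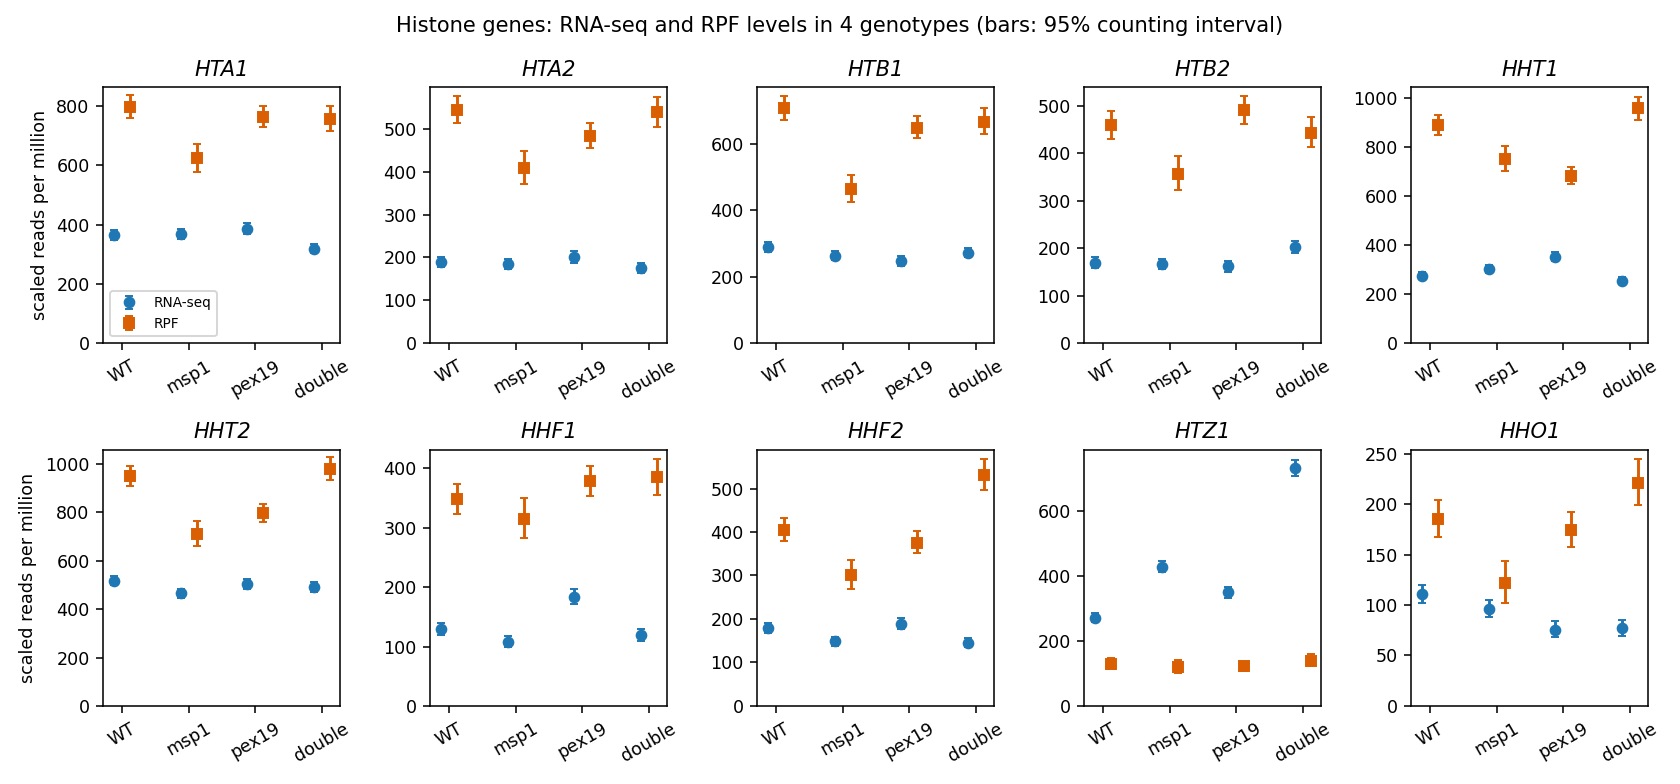
Scaled CPM (y axis) of the 10 histone genes in wild type (WT), the msp1, pex19 and double deletions (x axis), with RNA-seq as circles, RPF as squares and bars as 95% counting intervals of 1 library each. HTZ1 RNA lies between 271 in wild type and 732 in the double deletion, and its RPF between 121 and 140.

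Footprints per RNA of HTZ1, its translational efficiency (RPF over RNA-seq, as a ratio of ratios), was lower in every deletion than in wild type. On the log2 scale the difference was −1.33 (−1.60 to −1.06) in the double, −0.77 (−1.08 to −0.46) in the msp1 and −0.47 (−0.73 to −0.21) in the pex19 deletion. With the trend of length and GC content over all genes removed, it was −1.42 in the double, −0.45 in the msp1 and −0.26 in the pex19 deletion. In the double deletion it was the second lowest of 3737 genes, with only BUD23, a gene named here after its value was seen, lower at −2.51. In that comparison 0.294% of all genes were at least 2-fold lower in translational efficiency. Higher RNA without higher RPF was not particular to HTZ1, since 7 of the 8 genes at least 2-fold higher in RNA-seq in the double deletion were under 2-fold in RPF. For 3 of the 8, HTZ1 among them, translational efficiency was at least 2-fold lower. No annotated gene overlaps HTZ1 on either strand. Its annotated neighbours on both sides had RNA ratios from −0.56 to 0.07 for HRD1 and from −0.14 to 0.22 for PLB3 over the 3 deletions. The adjacent genes thus did not share the higher RNA in the double deletion. Whether a few fragments of the HTZ1 transcript carry the extra reads was not tested, since the files give 1 count per gene.

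**Figure D2:**
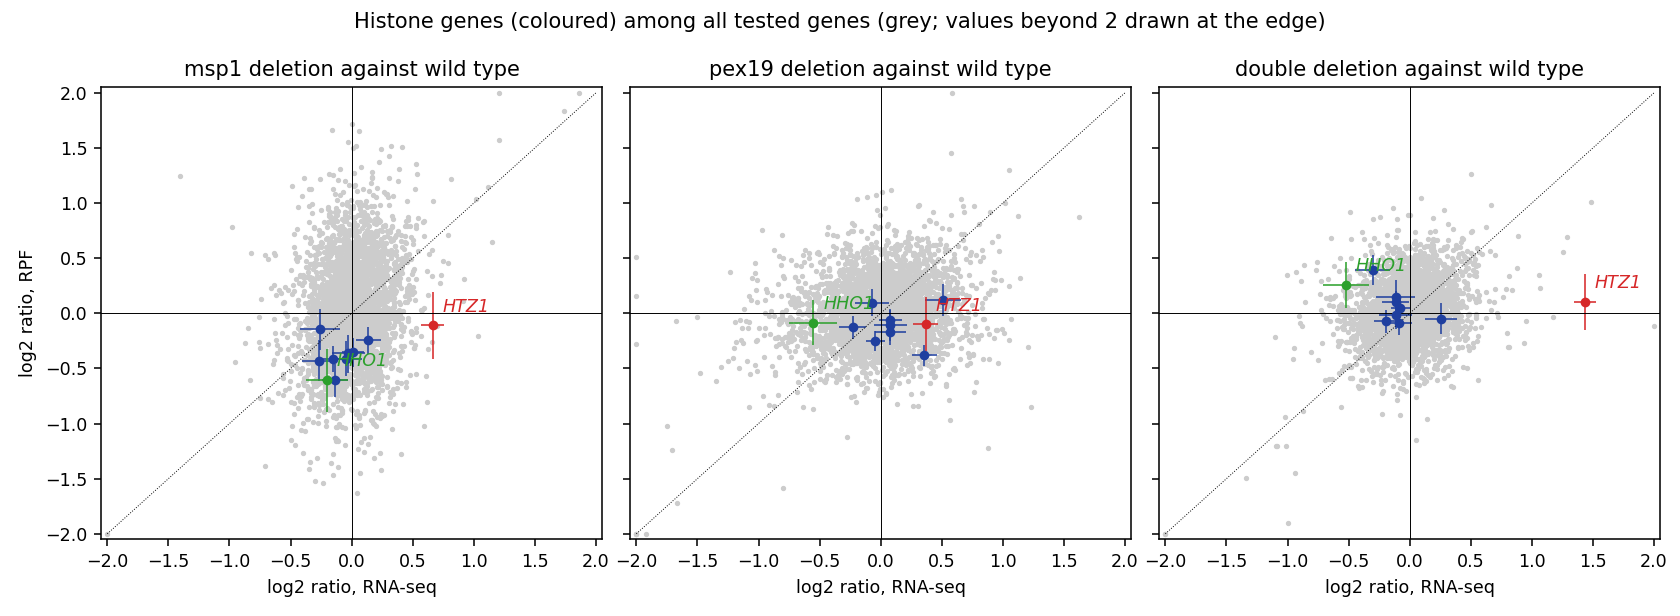
Log2 ratio to wild type in RNA-seq (x axis) and RPF (y axis) for all tested genes in grey and the histone genes in colour (core blue, HTZ1 red, HHO1 green), with bars for 95% counting intervals and ratios beyond 2 or −2 drawn at the edge. In the double deletion HTZ1 lies far right at 1.43 in RNA-seq and 0.10 in RPF, while the 8 core genes lie between −0.30 and 0.26 in RNA-seq.

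Within every genotype HTZ1 was also the histone gene with the fewest footprints per RNA. In wild type its deposited TPM, a level per length, was 649.7 in RNA-seq and 263 in RPF. HTA1 in the same libraries had 889.6 and 1639. Relative to the median of all tested genes, the log2 ratio of RPF to RNA-seq TPM of HTZ1 was −0.74 in wild type, −1.56 in the msp1, −1.23 in the pex19 and −2.11 in the double deletion. The percentiles of these values among tested genes were 25.2, 6.29, 11.3 and 4.04. The 8 core genes had values between 1.20 (HHT2) and 2.01 (HHT1) in wild type, at percentiles 90.3 to 99.2. HHO1 had 1.06 in wild type, and its RPF level per RNA was 1.52, 2.82 and 3.49 times that of the median gene without MSP1, without PEX19 and without both. Thus every core gene and HHO1 were above the median gene in all 4 genotypes and HTZ1 below it in all 4. The core genes are short, against a median coding length of 1305 nt over the tested genes. These levels were not compared with those of genes of like length, so whether they are particular to histones was not tested.

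**Figure D3:**
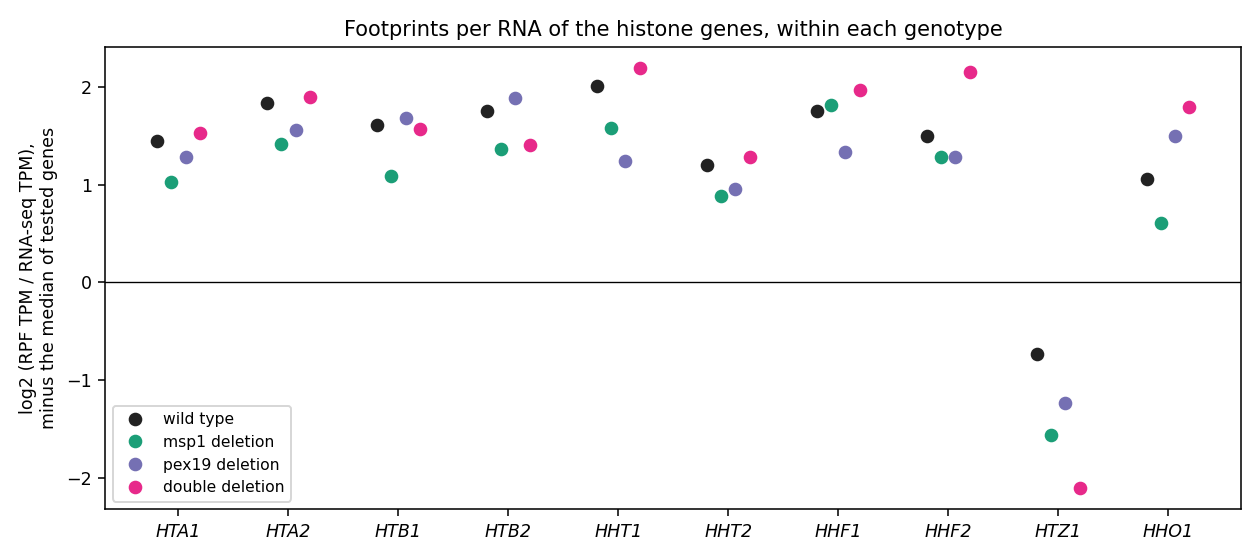
Log2 ratio of RPF TPM to RNA-seq TPM, minus the median of all tested genes (y axis), for each histone gene (x axis) in each genotype (colour); 1 point is 1 pair of libraries. HTZ1 lies below 0 in all 4 genotypes, from −0.74 to −2.11, and the other 9 genes above 0.

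In RNA-seq the order of levels per length in wild type ran from HHT2 (TPM 1219) over HTA1 (889.6), HTB1 (711), HHT1 (651), HTZ1 (649.7), HHF2 (579.9), HTA2 (463), HHF1 (419) and HTB2 (418) to HHO1 (130.0). HHT1 and HTZ1, and HHF1 and HTB2, were closest to each other, with read counts of 1501 and 1474 and of 702 and 925 for coding lengths of 411, 405, 312 and 396 nt. HTZ1 moved from the fifth place in wild type to the second in the msp1, the third in the pex19 and the first in the double deletion (TPM 1833). HHT2 was first in the other 3 genotypes, and HHO1 last in all 4. In RPF the order in wild type ran from HHT2 (1888) over HHT1 (1774), HTA1 (1639), HTB1 (1468), HTA2 (1118), HHF2 (1110), HHF1 (954), HTB2 (953) and HTZ1 (263) to HHO1 (183). HTZ1 and HHO1 held the last 2 places of the RPF order in all 4 genotypes. Core histone genes made up 0.614% to 0.666% of the listed RNA-seq TPM and 0.939% to 1.15% of the RPF TPM.

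The core histone genes as a sum stayed within 0.10 log2 units of wild type in RNA-seq and were lower in RPF in the msp1 deletion. Their summed RNA-seq reads were 11500 in wild type, 10577 in the msp1, 10240 in the pex19 and 9892 in the double deletion. The log2 ratios to wild type were −0.08 (−0.11 to −0.04), 0.07 (0.03 to 0.11) and −0.10 (−0.13 to −0.06). These ratios lay at percentiles 34.9, 59.0 and 33.4 of all tested genes. The 284 tested genes no longer than the longest core gene had median RNA-seq ratios of −0.035, 0.049 and −0.112, of the same signs. With the length and GC trend removed the core RNA-seq ratios became −0.035, 0.0082 and −0.018. In such bulk samples a difference in the share of cells in S phase and a difference in histone RNA per cell cannot be told apart. In RPF the summed reads were 10783, 4366, 10576 and 8929, with ratios of −0.38 (−0.43 to −0.32), −0.14 (−0.18 to −0.10) and 0.04 (0.00409 to 0.0853) without MSP1, without PEX19 and without both. The RPF ratios lay at percentiles 18.2, 28.5 and 56.3. All 8 core genes were below 0 in msp1 RPF, as were 48.9% of all tested genes. Under normalisation over all listed genes the last value turned to −0.02.

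Coding length moved with the RPF ratios. The core histone genes have coding lengths of 312 to 411 nt, against a median of 1305 nt over the tested genes. The 284 tested genes with at most 411 nt, the core histone genes among them, had median RPF ratios of −0.39 in the msp1, −0.13 in the pex19 and 0.02 in the double deletion. The core sum stood at −0.38, −0.14 and 0.04, close to these medians in each deletion. After removal of the trend with length and GC content the core RPF ratios became −0.00754 in the msp1 and −7.61e-05 in the pex19 deletion. Short genes in general thus had a difference of this size in the msp1 RPF library. With the trend removed the msp1 RPF ratios of the single histones became −0.02 for H2A, −0.15 for H2B, 0.03 for H3 and 0.13 for H4. Longer genes had higher RPF ratios in the msp1 deletion (Spearman 0.312, over genes, which share 2 libraries), while the RNA-seq ratio did not (0.00790). HTZ1 (405 nt) at −0.11 was higher than the median of these short genes in the msp1 RPF library, and became 0.26 with the trend removed.

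**Figure D4:**
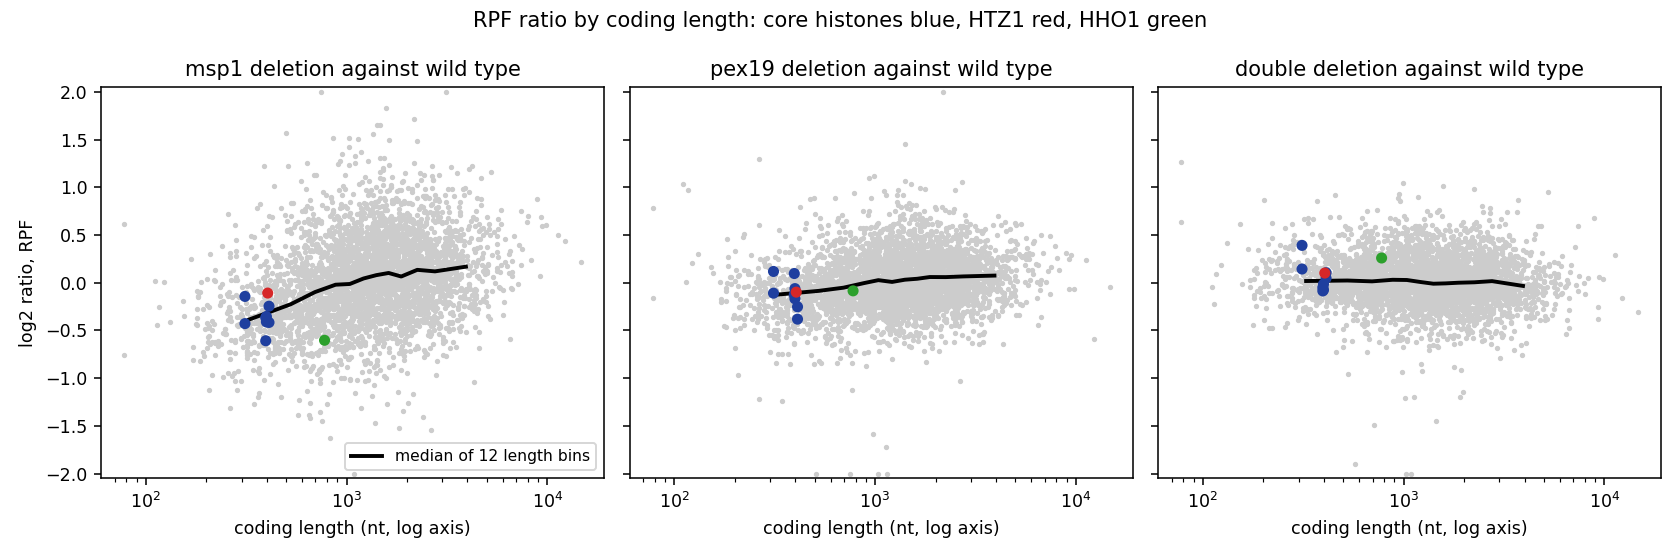
Log2 RPF ratio to wild type (y axis) against coding length on a log axis (x axis) for all tested genes in grey, with the median of 12 length bins as a line, core histone genes in blue, HTZ1 in red and HHO1 in green; ratios beyond 2 or −2 are drawn at the edge. In the msp1 deletion the line falls towards short genes and the core histone genes lie around it, at −0.14 to −0.61.

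Among the 4 core histones, H4 had the largest difference from wild type in the double deletion. HHF1 and HHF2 together had 1673 RNA-seq reads in wild type, 1351 in the msp1, 1715 in the pex19 and 1319 in the double deletion. Their RPF reads were 1592, 684, 1724 and 1555. In the double deletion H4 was lower in RNA-seq at −0.22 (−0.33 to −0.12) and higher in RPF at 0.28 (0.18 to 0.38). Its translational efficiency ratio of 0.50 (0.36 to 0.65) had percentile 94.2. The difference was wider for HHF2, with 971 RNA-seq reads in wild type and 723 in the double deletion, and 856 and 902 RPF reads. Its ratios were −0.30 (−0.44 to −0.16) and 0.39 (0.26 to 0.53), against −0.11 and 0.14 for HHF1. With 45.6% of 28-nt windows shared, the split between these 2 copies is the least certain of all. In the pex19 deletion HHF1 alone was higher in RNA-seq, at 0.51 (0.36 to 0.65) against 0.08 (−0.06 to 0.21) for HHF2.

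H3 had the highest level per length of the 4 core histones in wild type, with a summed TPM of 1869.5 in RNA-seq and 3662 in RPF. HHT1 and HHT2 together had 4313, 4049, 3941 and 3725 RNA-seq reads and 3892, 1625, 3390 and 3293 RPF reads with both genes, without MSP1, without PEX19 and without both. In the pex19 deletion the RNA ratio was 0.11 (0.05 to 0.17) and the RPF ratio −0.31 (−0.38 to −0.25). With the length and GC trend removed these became 0.045 and −0.18. HHT1 had the wider difference, with 1501 and 1628 RNA-seq reads and 1885 and 1566 RPF reads in wild type and the pex19 deletion. Its ratios were 0.36 (0.25 to 0.46) in RNA-seq and −0.38 (−0.48 to −0.28) in RPF. The translational efficiency ratio of HHT1 was −0.74 (−0.88 to −0.60), at percentile 3.40, and that of HHT2 was −0.21. In the msp1 deletion H3 was −0.05 in RNA-seq and −0.33 in RPF, and in the double deletion −0.09 and 0.08.

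H2A and H2B pair as a dimer in the nucleosome. H2A (HTA1 and HTA2) had RNA-seq ratios of −0.01, 0.08 and −0.17 and RPF ratios of −0.38, −0.10 and −0.05 without MSP1, without PEX19 and without both. H2B (HTB1 and HTB2) had −0.09, −0.17 and 0.05 in RNA-seq and −0.51, −0.03 and −0.07 in RPF. HTB2 was the one core gene whose RNA interval lay above 0 in the double deletion, at 0.26 (0.13 to 0.39), with 925 reads in wild type and 1017 there. HTB1 had the lowest RPF ratio of the 10 genes in the msp1 deletion, at −0.61 (−0.76 to −0.46), from 1495 to 515 reads in libraries of unequal depth. Per length, the summed TPM of H2A over that of H2B was 1.20 in wild-type RNA-seq and 1.14 in RPF. That of H3 over H4 was 1.87 and 1.77. Over the deletions the H3 to H4 ratio ranged from 1.67 to 2.18 in RNA-seq and from 1.43 to 1.72 in RPF. H4 was the lowest of the 4 histones in wild type in both assays; the H4 genes are also the shortest and the least unique.

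Both assays gave each pair of copies its own split. HTA1 took 65.8% of the H2A reads in wild-type RNA-seq and 59.4% (exact binomial interval 57.6 to 61.3) in RPF. HTB1 took 63.0% and 60.6% of the H2B reads. HHT2 took 65.2% (63.8 to 66.6) of the H3 reads in RNA-seq but 51.6% (50.0 to 53.1) in RPF. HHF2 took 58.0% and 53.8% of the H4 reads. For H3 the share of HHT1 was 34.2% to 41.3% over the 4 RNA-seq libraries and 46.2% to 51.4% over the 4 RPF libraries, so the assays did not overlap. For H2A the share of HTA1 was 64.5% to 66.7% in RNA-seq and 58.4% to 61.2% in RPF, again without overlap. For H2B and H4 the ranges of both assays overlapped. Per the labels, RNA-seq fragments were selected over a wider size range than footprints, and whether this shifts the assignment of shared reads was not tested.

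**Figure D5:**
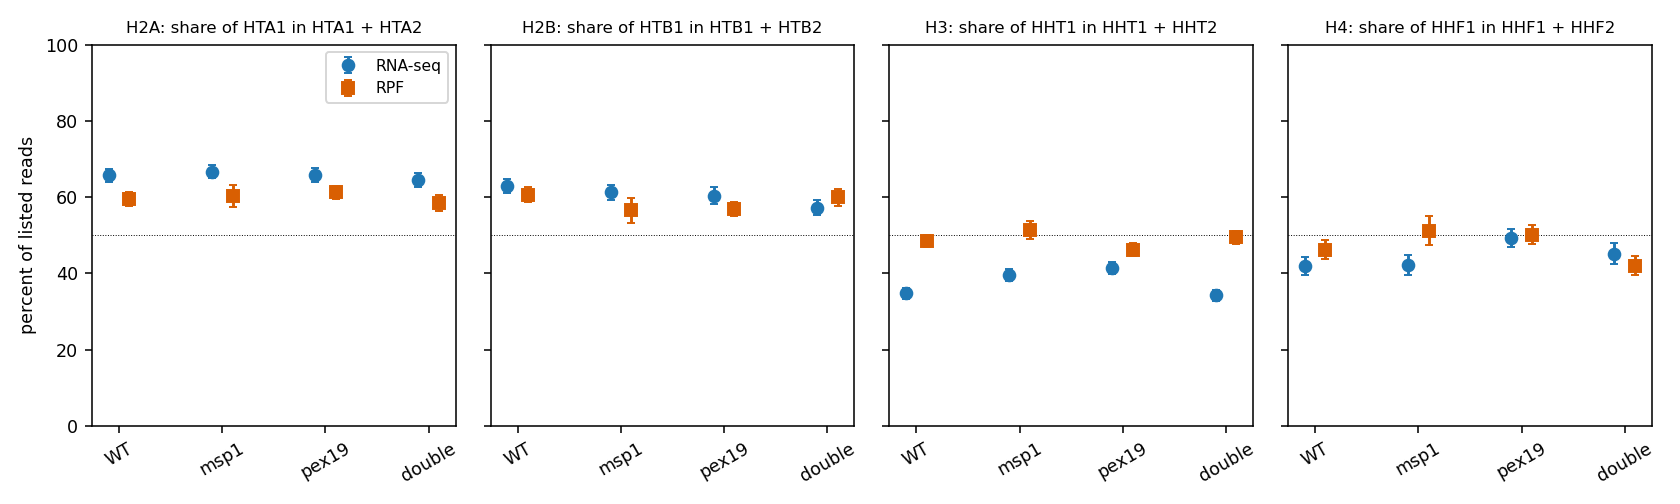
Share of the first copy in the listed reads of each pair (y axis, percent) in the 4 genotypes (x axis), RNA-seq as circles and RPF as squares, bars as exact 95% binomial intervals. For H3 the HHT1 share lies at 34.2% to 41.3% in RNA-seq and at 46.2% to 51.4% in RPF.

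HHO1, the linker histone gene (YPL127C; chromosome XVI, 308828 to 309604, minus strand, 1 coding exon), was lower in RNA in all 3 deletions. It had 604 RNA-seq reads in wild type, 508 in the msp1, 349 in the pex19 and 386 in the double deletion. The ratios were −0.20 (−0.38 to −0.03), −0.55 (−0.75 to −0.36) and −0.52 (−0.71 to −0.34). These lay at percentiles 15.1, 6.21 and 2.17 of all tested genes. All 3 share 1 wild-type library, so their common sign is not independent. None of the 3 intervals reaches 0, and those of the pex19 and double deletions nearly coincide. In RPF it had 391, 135, 399 and 376 reads, with ratios of −0.60 (−0.90 to −0.32), −0.08 (−0.29 to 0.12) and 0.26 (0.05 to 0.47). In the double deletion HHO1 therefore had less RNA and more footprints, with a translational efficiency ratio of 0.78 (0.51 to 1.06) at percentile 98.6. HHO1 and HTZ1 were thus near opposite ends of that distribution.

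The double deletion was also set against each single deletion, which gives the loss of the second gene. On loss of PEX19 in the msp1 background HTZ1 RNA was 0.77 (0.69 to 0.85) higher, and on loss of MSP1 in the pex19 background 1.06 (0.98 to 1.15) higher. In the second of these comparisons 1.26% of all genes were at least 2-fold higher in RNA-seq, and HTZ1 was the only histone gene there. The RPF ratios of HTZ1 were 0.21 (−0.10 to 0.53) and 0.20 (−0.06 to 0.46). The HTZ1 RNA value of the double deletion exceeded the sum of both single log2 ratios by 0.40 (0.27 to 0.53), a value at percentile 85.7 of all genes. Against the msp1 deletion the core sum was −0.02 in RNA-seq and 0.42 (0.37 to 0.47) in RPF, and against the pex19 deletion −0.17 and 0.19. The first RPF value became 0.05 with the length and GC trend removed. All 10 histone genes were above 0 in RPF against the msp1 deletion (0.21 to 0.86), where 49.9% of all tested genes were below 0, and this rests on 1 msp1 RPF library in which short genes were low. The translational efficiency of HHO1 was 1.18 (0.84 to 1.52) higher against the msp1 deletion, past 2-fold, as were 2.46% of all genes.

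Genes that act on histone transcription and deposition were summarised as lists, with no test of a list. Of 16 listed regulators of histone transcription 12 passed the read minimum. With 0 genes past 2-fold, median RNA-seq ratios stood at −0.09 without MSP1, −0.04 without PEX19 and 0.05 without both, and median RPF ratios at −0.12, −0.08 and −0.05. The medians of all tested genes lay between −0.01 and 0.01. In any comparison with wild type and either assay, at most 1.82% of all tested genes were at least 2-fold higher and 1.26% lower. Counts of 0 in lists this short therefore say little, here and in the lists below. HIR1, a subunit of the HIR repressor, had RNA-seq and RPF ratios of −0.39 and −0.60 in the double deletion, the latter from 80 and 42 reads. HPC2, of the same complex, was 0.70 and −0.08 in the pex19 deletion. MBP1, the DNA-binding subunit of the G1/S factor MBF, was −0.62 and −0.44 there, and SPT5, an elongation factor, 0.01 and −0.40.

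Of 14 listed genes of H2A.Z exchange 9 were measured, and 0 were past 2-fold. Median RNA-seq ratios stood at 0.02 without MSP1, 0.02 without PEX19 and 0.08 without both, and median RPF ratios at −0.27, −0.09 and −0.06. CHZ1, a chaperone for H2A.Z, had RNA-seq and RPF ratios of −0.07 and 0.12 in the double deletion and −0.30 and −0.53 in the pex19 deletion. The SWR1 complex genes VPS72 (0.36 and −0.07), SWC5 (0.13 and −0.06) and VPS71 (0.13 and −0.27) differed by less than HTZ1 RNA in the double deletion. Of 18 histone chaperone and assembly genes 14 were measured, with medians between −0.14 and −0.04 in all 3 deletions and both assays. RLF2, the large subunit of the CAF-1 assembly factor, was the only one past 2-fold, at −1.53 in msp1 RPF. It went from 123 to 22 reads in libraries of unequal depth, and 1.26% of all genes were at least 2-fold lower there. CSE4, the centromeric H3 variant, was 0.50 and 0.55 in the double deletion, from 146 to 190 RNA-seq reads and 90 to 106 RPF reads. HAT1 and HIF1, of the histone acetyltransferase complex for new H4, were −0.73 and −0.94 in pex19 RNA-seq and −0.40 and −0.13 in RPF.

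Genes of S phase and of the cell cycle were summarised in the same way. Of 34 S-phase and replication genes 32 were measured, with 0 past 2-fold. Over the same order of strains the median RNA-seq ratios were −0.02, −0.07 and −0.04 and the median RPF ratios 0.16, −0.01 and −0.04. MCM3, of the replicative helicase, was 0.53 and 0.41 in the pex19 deletion, and PRI1, of DNA primase, 0.43 and 0.35 in the double deletion. TOF1, of the replication checkpoint, was 0.19 and 0.86 in the double deletion and RFA3, of replication protein A, −0.49 and −0.47 in the pex19 deletion. Of 18 cyclin and cell cycle genes 13 were measured, with median RNA-seq ratios of −0.13, −0.21 and −0.08 and median RPF ratios of −0.09, −0.11 and −0.20. CDC28, the main cyclin-dependent kinase, was −0.86 and −0.22 in the pex19 deletion. CDC20, an activator of the anaphase-promoting complex, was −0.84 and −0.21 in the pex19 deletion. The mitotic cyclin gene CLB2 was −0.09 and −0.92 in the msp1 deletion, the latter from 102 to 28 RPF reads in libraries of unequal depth.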

How the data were processed

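RNA-seq and RPF were measured in 1 library per genotype, 8 in all. The tools cutadapt 1.8 and STAR 2.5 and the builds sacCer3 and R64 are named, per the submitters' processing notes. The sources used here give no counting tool, strand setting or handling of shared reads. The authors' deposited read counts per gene, per the file headers, were the input of all ratios. The authors' deposited TPM, per the file headers, gave levels per length. The authors' deposited RPM and RPKM, present for the double deletion's RNA-seq library, imply for all 10 histone genes a length 50 nt under the coding length. The same held for 5716 of the 5994 genes with a reference coding length, so it is not particular to histones. Coordinates and sequences come from the R64 reference.

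Counts were scaled within an assay by TMM (edgeR 4.0.16, R 4.3.3) on genes averaging 50 reads or more in that assay, and 1 read was added as a pseudocount before log2 ratios. Intervals of ratios are exact conditional binomial (95%), those of levels exact Poisson, and those of translational efficiency and nonadditive values use normal theory on the counts. They cover counting error only and not differences between cultures or library preparations, since each count comes from 1 library. PCR duplicates cannot be recognised in reads that carry no molecular identifier, and any such duplicates would make the intervals too narrow. The calculation was tested on simulated data. With 1 library per group no test was run. Copies were aligned with Biopython 1.88. Alternatives changed the scaling (DESeq2 1.42.0 size factors among them), the pseudocount, the unit, the listed minimum of 1 and the length and GC trend (loess). All 10 histone genes are named, with up to 4 genes of each context list by the largest mean ratio over both assays. Values of these list genes are given for only some deletions, often one where they were large. One gene of the cell cycle list is not reported here. The histone genes and lists were chosen with earlier results of these data known; the motif, its 600-base window, the neighbours of HTZ1, the loess settings (span 0.5, degree 1) and the 411-nt limit (the longest core histone gene) were chosen with the files in hand.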

Additional observations from a re-analysis of the deposited data

Results flagged for a closer look

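The loss of 1 gene was compared between 2 backgrounds for each histone gene, each core histone sum and the sum of all core genes. In 21 of 60 such pairs the 2 log2 ratios had opposite signs with both counting intervals clear of 0, 15 of them in RPF and 6 in RNA-seq. With 1 library per group these differences were not tested, the pairs share libraries, and the sums hold the same reads as their genes. The share of all tested genes with such opposite signs was not counted, so the 21 pairs say nothing particular to histones. For loss of PEX19 in RPF, the first value is that in wild type and the second that in the msp1 deletion. HTA2 had −0.17 and 0.40, HTB1 had −0.12 and 0.52 and HHT1 had −0.38 and 0.35. HHT2 had −0.25 and 0.46, H2A had −0.10 and 0.33 and H3 had −0.31 and 0.41. The core sum had −0.14 and 0.42. For loss of PEX19 in RNA-seq, the first value is that in wild type and the second that in the msp1 deletion. HHT1 had 0.36 and −0.25, H2A had 0.079 and −0.16 and H2B had −0.17 and 0.15. For loss of MSP1 in RPF, the first value is that in wild type and the second that in the pex19 deletion. HTA2 had −0.41 and 0.15, HHT1 had −0.25 and 0.49 and HHT2 had −0.42 and 0.30. HHF2 had −0.43 and 0.50, HHO1 had −0.60 and 0.34 and H3 had −0.33 and 0.39. H4 had −0.29 and 0.28 and the core sum had −0.38 and 0.19. For loss of MSP1 in RNA-seq, the first value is that in wild type and the second that in the pex19 deletion. HTB1 had −0.13 and 0.14, HHT1 had 0.14 and −0.47 and H2B had −0.094 and 0.22. All RPF pairs rest on the msp1 RPF library, either directly or as the background, and short genes were low in that library; the part of this in the pairs was not tested. The largest difference in RNA-seq between 2 backgrounds was that of HHT1, at −0.61 (−0.75 to −0.46), and in RPF that of HHO1, at 0.95 (0.60 to 1.30), both with counting intervals. Among all tested genes these lay at percentiles 6.61 and 95.6, and the core sum at 41.1 in RNA-seq and 84.6 in RPF.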

How the results depend on the processing

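No paired analysis was possible because each genotype had 1 library per assay. The HTZ1 ratios to wild type in RNA-seq kept their sign and stayed within their counting interval under every alternative, as did its RPF and translational efficiency ratios in the double deletion. In every alternative 1 histone gene was at least 2-fold higher in RNA-seq in the double deletion, also with no read minimum or a minimum of 200, where 4.65% and 0.206% of all genes were that high. DESeq2 size factors, a pseudocount of 0 or 5 and subtraction of 1 from every count left all 245 ratios and counts within their interval. TMM over all listed genes moved the median RPF ratio of all tested genes in the msp1 deletion from 0.015 to −0.18, so values under it there stand relative to that shift. Removing the length and GC trend moved 109 of 245 values beyond their counting interval and turned the sign of 18. Counting intervals of the sums are narrow, so small shifts leave them. Listed below on the log2 scale are all values that turned sign, and those that left their interval among the sums, HTZ1 and HHO1, which had none for HHO1. Values of single core genes that left their interval with the same sign are not listed: 60 with the trend removed, 14 with TMM over all listed genes and 11 with deposited TPM. The cause was not tested, except that the trend removal subtracts the value of genes of like length and that deposited RNA-seq TPM have unlike totals. With 1 library per group, differences between cultures cannot be told from differences between genotypes. 

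Scaled by library totals, RNA-seq in the pex19 deletion became 0.026 for the core sum. RNA-seq in the double against the pex19 deletion became −0.12 for the core sum.

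With TMM over all listed genes, RPF in the msp1 deletion became −0.58 for the core sum, −0.58 for H2A, −0.71 for H2B, −0.53 for H3 and −0.49 for H4. Translational efficiency in the msp1 deletion became −0.50 for the core sum, −0.57 for H2A, −0.61 for H2B, −0.48 for H3 and −0.22 for H4. RPF in the double deletion became −0.024 for the core sum and 0.0074 for H3. In the double deletion, translational efficiency became 0.077 for the core sum. RPF in the double against the msp1 deletion became 0.55 for the core sum, 0.46 for H2A, 0.57 for H2B and 0.54 for H3. Translational efficiency in the double against the msp1 deletion became 0.57 for the core sum, 0.62 for H2A and 0.58 for H3. RPF in the double against the pex19 deletion became 0.12 for the core sum and 0.32 for H3. In the double against the pex19 deletion, translational efficiency became 0.28 for the core sum.

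With deposited TPM, RNA-seq in the msp1 deletion became −0.035 for the core sum. RPF in the msp1 deletion became −0.23 for the core sum, −0.23 for H2A, −0.36 for H2B, −0.19 for H3 and −0.14 for H4. Translational efficiency in the msp1 deletion became −0.19 for the core sum. RNA-seq in the pex19 deletion became 0.18 for the core sum, 0.18 for H2A, −0.066 for H2B, 0.21 for H3 and 0.38 for H4. RPF in the pex19 deletion became −0.082 for the core sum. RNA-seq in the double deletion became −0.037 for the core sum and −0.026 for H3. RPF in the double against the msp1 deletion became 0.29 for the core sum, 0.19 for H2A, 0.30 for H2B, 0.27 for H3 and 0.44 for H4. In the double against the msp1 deletion, translational efficiency became 0.29 for the core sum, 0.34 for H2A, 0.14 for H2B and 0.30 for H3. RNA-seq in the double against the pex19 deletion became −0.22 for the core sum.

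With the length and GC trend removed, RNA-seq in the msp1 deletion became −0.035 for the core sum. RPF in the msp1 deletion became −0.0075 for the core sum, 0.26 for HTZ1, 0.014 for HTA1, 0.12 for HHT1, −0.016 for H2A, −0.15 for H2B, 0.026 for H3 and 0.13 for H4. Translational efficiency in the msp1 deletion became 0.028 for the core sum, −0.45 for HTZ1, 0.052 for HHT2, −0.049 for H2A, −0.096 for H2B, 0.032 for H3 and 0.34 for H4. RNA-seq in the pex19 deletion became 0.0082 for the core sum and 0.045 for H3. RPF in the pex19 deletion became −7.61e-05 for the core sum, 0.011 for HTB1, 0.036 for H2A, 0.10 for H2B, −0.18 for H3 and 0.16 for H4. In the pex19 deletion, translational efficiency became −0.0083 for the core sum, 0.069 for HTA1, 0.0202 for H2A, 0.33 for H2B, −0.22 for H3 and −0.044 for H4. RNA-seq in the double deletion became −0.018 for the core sum and −0.013 for H3. Translational efficiency in the double deletion became 0.048 for the core sum. RPF in the double against the msp1 deletion became 0.0496 for the core sum, −0.15 for HTZ1, −0.082 for HTA1, −0.049 for HTB2, −0.14 for HHF1, −0.035 for H2A, 0.072 for H2B, 0.055 for H3 and 0.14 for H4. In the double against the msp1 deletion, translational efficiency became 0.046 for the core sum, −0.95 for HTZ1, 0.10 for H2A, −0.089 for H2B, 0.073 for H3 and 0.065 for H4. RNA-seq in the double against the pex19 deletion became −0.025 for the core sum, 1.22 for HTZ1, −0.10 for H2A, 0.35 for H2B, −0.056 for H3 and −0.33 for H4. RPF in the double against the pex19 deletion became 0.025 for the core sum, −0.011 for HTA2, −0.10 for H2A, −0.20 for H2B, 0.24 for H3 and 0.089 for H4. Translational efficiency in the double against the pex19 deletion became 0.0501 for the core sum, −1.16 for HTZ1, −0.043 for HTA1, 0.000762 for H2A, −0.55 for H2B, 0.30 for H3 and 0.42 for H4.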

Other observations

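Among 1453 genes with a mean of at least 200 reads in both assays, those whose log2 levels, centred within each assay, most resembled the core histone sum over the 8 libraries were GBP2 (Pearson r 0.979), GLO3 (0.973), RPL26A (0.968), RPS29A (0.962) and RPS23A (0.959). GBP2 encodes an mRNA-binding export factor, GLO3 a GTPase-activating protein of vesicle transport, and the last 3 ribosomal proteins. These are descriptions over 8 libraries that all genes share, and the core sum itself spanned only −0.26 to 0.16. Genes of a divergent histone pair had r of 0.864 (HHT2 and HHF2), 0.666 (HTA1 and HTB1), 0.514 (HHT1 and HHF1) and 0.363 (HTA2 and HTB2). The 2 copies of a histone, on different chromosomes, had 0.900 for H2A, 0.761 for H2B, 0.646 for H4 and 0.587 for H3. Pairs of neither kind spanned −0.42 (HTA1 and HTZ1) to 0.898 (HTA2 and HHT2). High values were therefore not particular to genes of 1 locus or to copies. Copies also share part of their reads, and the part of this in the values of copies was not tested.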
